A study of Mus musculus with 4 samples.

Results

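The chemokine and chemokine receptor genes described here are the 47 rows of the count table, of 17230 in all, whose symbol names a Ccl, Cxcl, Ccr, Cxcr or Cx3c gene, with Cxcl12 itself set apart as a reference level. Chemokines are small secreted proteins that draw cells along a gradient, and they are sorted into CC, CXC and CX3C families by the spacing of the first cysteines of the protein. They act on G-protein-coupled receptors that sit mainly on leukocytes, and a few atypical receptors bind them without that coupling and remove them. In bone marrow the best known pair is CXCL12, made by reticular stroma, and its receptor CXCR4 on blood stem cells and B-cell precursors. By textbook knowledge of the usual source the 47 genes were divided into 14 ligands made mainly by stromal, endothelial or epithelial cells, 8 ligands made by both stroma and leukocytes on stimulation, 8 leukocyte ligands, 16 receptors carried mainly by leukocytes and 1 scavenging receptor (Cxcr7, now named Ackr3). The division is by what is known of each gene and not by these libraries.

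By its title the study sequenced bulk RNA, here of cells sorted as GFP-positive and tdTomato-positive CXCL12-abundant reticular (CAR) cells from mouse femurs at postnatal day 21, with the distal growth plates taken off. Hes1-derived cells came from mice of genotype Cxcl12(GFP/+); Hes1(CreER/+); R26R(tdTomato/+) and are represented by replicates 1 and 3. Fgfr3-derived cells came from mice of genotype Cxcl12(GFP/+); Fgfr3-iCreER; R26R(tdTomato/+) and are represented by replicates 2 and 3. Both groups carry GFP at a Cxcl12 allele and the tdTomato lineage reporter, and both received tamoxifen at embryonic day 12.5, so that tdTomato marks the descendants of cells in which Hes1 or Fgfr3 drove the Cre at that stage. By its title the series follows CAR cells that arise from the fetal perichondrium and from chondrocytes, and the comparison asks how CAR cells of the 2 lineages differ. The Cre line and the lineage cannot be told apart, and whether each library stands for 1 animal or for pooled animals is not in the labels, so that the p-values measure the spread between these libraries, which may be technical. The extraction text of the labels mentions only tdTomato for the sort, which leaves the GFP gate uncertain, and it also describes loading a single-cell droplet instrument. The count table has 1 column per sample and was treated as bulk. Below, values of the Hes1-derived pair are given for replicate 1 before 3 and those of the Fgfr3-derived pair for replicate 2 before 3.

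The libraries held 22745128 and 23625327 counted reads (Hes1-derived pair) and 26025607 and 26804832 (Fgfr3-derived pair). The 47 genes together took between 0.124% of the reads (Fgfr3-derived replicate 3, 95% exact binomial interval 0.123% to 0.125%) and 0.175% (Fgfr3-derived replicate 2, 0.173% to 0.176%), and these intervals cover counting error only. CAR cell markers were high in every library: 20 of 20 listed genes had reads, and Cxcl12 stood at 7057 and 4180 CPM (reads scaled to library size) in the Hes1-derived pair, against 9764 and 7028 CPM in the Fgfr3-derived pair. Markers of blood cells were present as well and differed between the groups. The summed level of 9 pan-leukocyte genes was 5600 to 6610 CPM in Hes1-derived and 1590 to 3410 CPM in Fgfr3-derived libraries. For 12 B-lymphocyte genes the sum was 2540 to 2680 CPM in Hes1-derived against 672 to 755 CPM in Fgfr3-derived libraries. For 11 neutrophil genes it was 27300 to 32200 CPM in Hes1-derived against 8850 to 21900 CPM in Fgfr3-derived libraries, and for 13 monocyte and macrophage genes 6490 to 8420 CPM in Hes1-derived against 3310 to 4350 CPM in Fgfr3-derived libraries. None of these lists had a gene at 0 reads in all libraries. Vcam1 is in both the CAR cell list and the monocyte and macrophage list. It adds 1291 and 964 CPM to the latter in the Hes1-derived pair, against 1729 and 859 CPM in the Fgfr3-derived pair. The B-lymphocyte list includes Ebf1, which stroma also expresses. Ebf1 adds 217 and 237 CPM in the Hes1-derived pair. In the Fgfr3-derived pair it adds 331 and 154 CPM to B-lymphocyte sums of 672 and 755 CPM. In such bulk samples, fewer cells of a type and less RNA per cell cannot be told apart.

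A ligand gene and 3 receptor genes of leukocytes rose in the Hes1-derived libraries, and no stroma-made ligand passed the test. They were Ccl6 and the receptor genes Ccr7, Cxcr4 and Cxcr5, between 3.83-fold and 6.91-fold higher. Of the 47 rows 36 had enough reads to be tested, and by edgeR's quasi-likelihood test with Benjamini-Hochberg adjustment over 14330 genes (threshold 0.05) 4 of the 36 were higher and 0 were lower. Among all genes tested 5.24% were higher, 6.56% were lower and 11.8% were called in either direction. At an unadjusted p under 0.05, 14 members were higher and 2 lower, where the shares over all genes tested were 13.7% and 16.3%. DESeq2 called 11 members higher and 2 lower (9.97% and 10.9% of all genes), and limma-voom 7 higher and 0 lower (6.23% and 7.33% of all genes). Both Hes1-derived libraries lay above both Fgfr3-derived libraries for 19 of the 36 members and below them for 5, where the shares over all genes tested were 29.8% and 32.1%. The median log2 fold change (Hes1-derived minus Fgfr3-derived throughout) was 0.79 over the tested members and -0.02 over all genes tested. A gene that passes the read filter only through the group where it is high must differ, so these member counts describe and do not test the family.

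**Figure D1:**
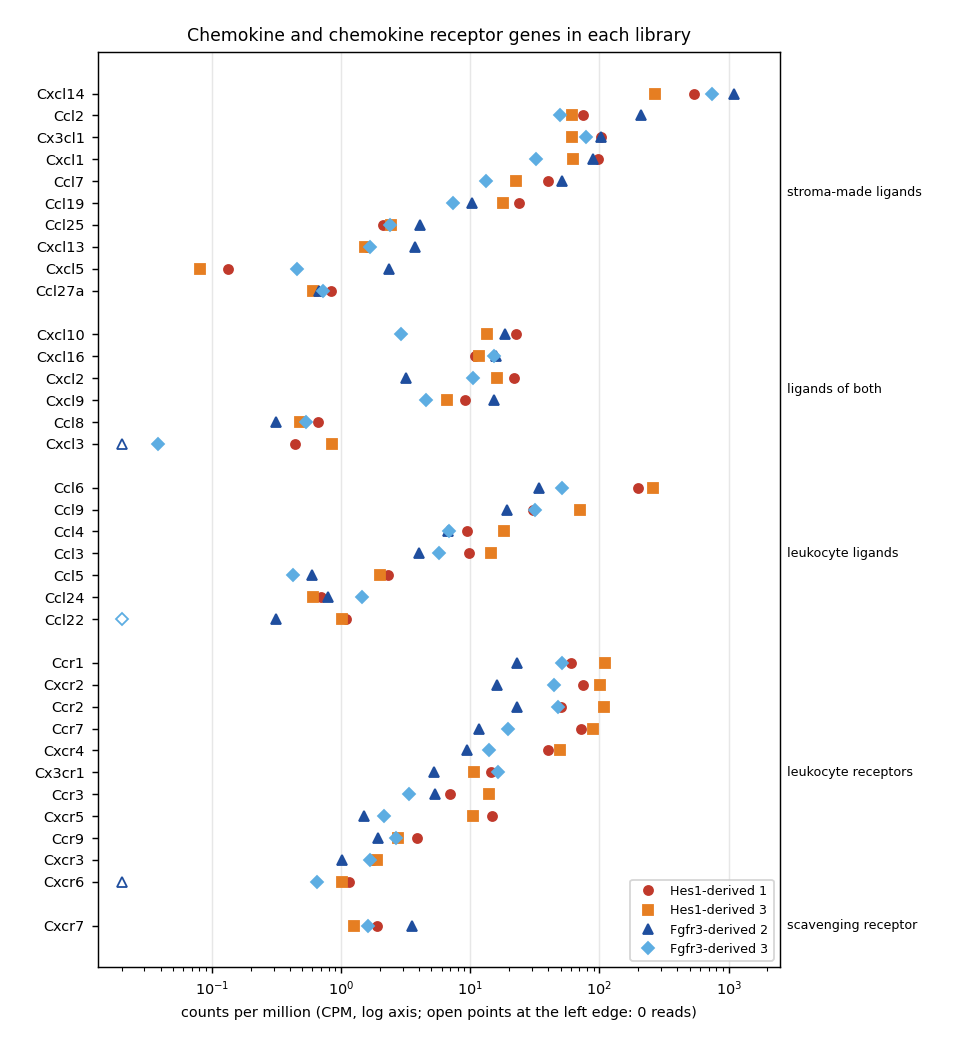
Level of 35 tested chemokine and receptor genes in each of the 4 libraries, in CPM on a log axis, grouped by usual source and sorted by mean level within a group. Every leukocyte receptor drawn except Cx3cr1 has both Hes1-derived points to the right of both Fgfr3-derived points (29.8% of all genes tested). Between the groups 6 of the 10 tested stroma-made ligands overlap, as do 5457 of the 14330 genes tested.

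The untested members had few reads. The 11 rows that failed the filter (Ccl11, Ccl12, Ccl17, Ccl20, Ccl28, Ccr4, Ccr6, Ccr10, Ccr1l1, Cxcl11 and Cxcl15) held between 2 and 32 reads over the 4 libraries, and no library had more than 20 reads of any of them. The tested members with the fewest reads were Cxcl3 with 32, Ccl8 with 49 and Ccl22 with 58. A library with 0 reads allows a level of up to 0.115 to 0.132 CPM (3 reads).

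Among the stroma-made ligands Cxcl14 had the highest level per kilobase of exon. CXCL14 is a ligand expressed at rest by many epithelia and stromal cells, and its gene lies on chromosome 13, 56288643 to 56296551, minus strand (GRCm38, the build the submitters call mm10). It had 543 and 269 CPM in the Hes1-derived pair, against 1094 and 746 CPM in the Fgfr3-derived pair. Both Hes1-derived libraries were thus below both Fgfr3-derived libraries, and the Hes1-derived pair itself differed 2.02-fold. The log2 fold change was -1.18 ± 0.39 (SE) and the adjusted p of edgeR was 0.089, so Cxcl14 did not pass. It passed with DESeq2 (-1.15, adjusted p = 0.0077) and without Hes1-derived replicate 1 (-1.78, adjusted p = 0.028). Over the 12 alternatives that did not scale to leukocytes its log2 fold change ran between -1.78 and -0.47 with adjusted p between 0.0077 and 0.69, and scaling to the pan-leukocyte genes gave -2.72 (adjusted p = 0.012). Per 1000 reads of eGFP, the reporter of the Cxcl12 locus, Cxcl14 had 81.4 and 83.9 reads in the Hes1-derived pair, against 118 and 110 in the Fgfr3-derived pair. On this scale too the groups were apart, and the Hes1-derived values came close together. Osteoblast genes, which stood apart in the same direction, summed to 3650 to 3740 CPM in Hes1-derived and 15200 to 19000 CPM in Fgfr3-derived libraries, and their part in the Cxcl14 values was not tested.

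Per kilobase of exon, Cxcl14 ranked just after Cxcl12 among these genes. It averaged 222 CPM per kilobase in Hes1-derived and 504 in Fgfr3-derived libraries, where Cxcl12 averaged 687 in Hes1-derived and 1027 in Fgfr3-derived libraries. Ccl2, which encodes the main attractant of monocytes, averaged 59.8 CPM per kilobase in Hes1-derived and 114 in Fgfr3-derived libraries. Ccl7, a monocyte attractant whose gene lies 8.3 kb from Ccl2 on chromosome 11, averaged 39.4 in Hes1-derived and 40.1 in Fgfr3-derived libraries on the same scale. Cxcl1, a neutrophil attractant, averaged 42.3 in Hes1-derived and 32.4 in Fgfr3-derived libraries, and Cx3cl1, the membrane-bound fractalkine, 20.8 in Hes1-derived and 23.1 in Fgfr3-derived libraries. Ccl2 varied too much between libraries, from 43.5 to 184.5 CPM per kilobase within the Fgfr3-derived pair, for its place in this order to be firm.

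Ccl19 was the stroma-made ligand nearest to a higher call. CCL19 attracts CCR7-bearing lymphocytes and dendritic cells and is made by fibroblastic reticular cells of lymphoid organs. Its gene (chromosome 4, 42754525 to 42756577, minus strand) had 23.8 and 17.8 CPM in the Hes1-derived pair, against 10.3 and 7.30 CPM in the Fgfr3-derived pair. The groups did not overlap, and the log2 fold change was 1.24 ± 0.32 with an adjusted p of 0.051 by edgeR. The call changed with small changes of the fit, since Ccl19 passed in 7 of 12 alternatives, with adjusted p between 0.00525 (DESeq2) and 0.18 (without Hes1-derived replicate 1). Scaled to the pan-leukocyte genes it turned to -0.30 (adjusted p = 0.74). Per 1000 eGFP reads it had 3.57 and 5.55 reads in the Hes1-derived pair, against 1.11 and 1.08 in the Fgfr3-derived pair. Its reads are uncertain to the extent that GENCODE lists near copies of the gene (Ccl19-ps1 and Ccl19-ps3) on the same chromosome.

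The other stroma-made ligands did not separate the groups by the test. Cx3cl1 had 103 and 61.0 CPM in the Hes1-derived pair, against 103 and 78.5 CPM in the Fgfr3-derived pair, with a log2 fold change of -0.15 ± 0.29. Relative to eGFP, however, Cx3cl1 and Cxcl1 were both higher in Hes1-derived libraries without overlap, at 15.4 and 19.0 reads of Cx3cl1 per 1000 eGFP reads in the Hes1-derived pair, against 11.1 and 11.6 in the Fgfr3-derived pair. For Cxcl1 these were 14.5 and 19.4 reads in the Hes1-derived pair, against 9.61 and 4.79 in the Fgfr3-derived pair. eGFP itself was at 6669 and 3204 CPM in the Hes1-derived pair, against 9264 and 6754 CPM in the Fgfr3-derived pair. Scaling to it turned the sign of Cx3cl1 to 0.60 (adjusted p = 0.62 by edgeR). The median of all genes tested moved to 0.83 under that scaling, above the value of Cx3cl1. Per 1000 eGFP reads Ccl7, Ccl19 and Ccl27a were also higher without overlap, and Cxcl14 and Cxcl5 were lower. Ccl25, the thymic and intestinal ligand of CCR9, and Cxcl13, the B-cell follicle ligand of CXCR5, stayed at or below 4.10 CPM in every library. Ccl27a, a skin ligand with a near copy (Ccl27b), stayed at or below 0.84 CPM. Counts of Ccl25 and Ccl27a are uncertain where exons of Elavl1 and Il11ra1 overlap theirs on the opposite strand. Reads there may have been added or left out, because the strand setting of the counting is not given in the sources used here.

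Cxcl5, a neutrophil attractant of epithelia and fibroblasts, had 3 and 2 reads in the Hes1-derived pair, against 60 and 12 reads in the Fgfr3-derived pair. The groups did not overlap, and most reads came from Fgfr3-derived replicate 2. The ratio of summed reads, scaled to depth, was 0.075 (95% counting interval 0.024 to 0.18), and the adjusted p by edgeR was 0.074. It passed as lower with DESeq2 (adjusted p = 0.036) and in the fit that left out Fgfr3-derived replicate 3 (adjusted p = 0.048), whereas leaving out replicate 2 gave an adjusted p of 0.57 (-2.05). Of the 10 tested stroma-made ligands 0 passed edgeR in either direction, with 1 higher and 2 lower at an unadjusted p under 0.05. DESeq2 called Ccl19 higher and Cxcl14 and Cxcl5 lower, and limma-voom called Ccl19 higher and 0 lower. Their median log2 fold change was -0.34. Of all genes tested edgeR called 5.24% higher and 6.56% lower, with 13.7% and 16.3% at an unadjusted p under 0.05. DESeq2 called 9.97% of all genes higher and 10.9% lower, and limma-voom 6.23% and 7.33%.

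**Figure D2:**
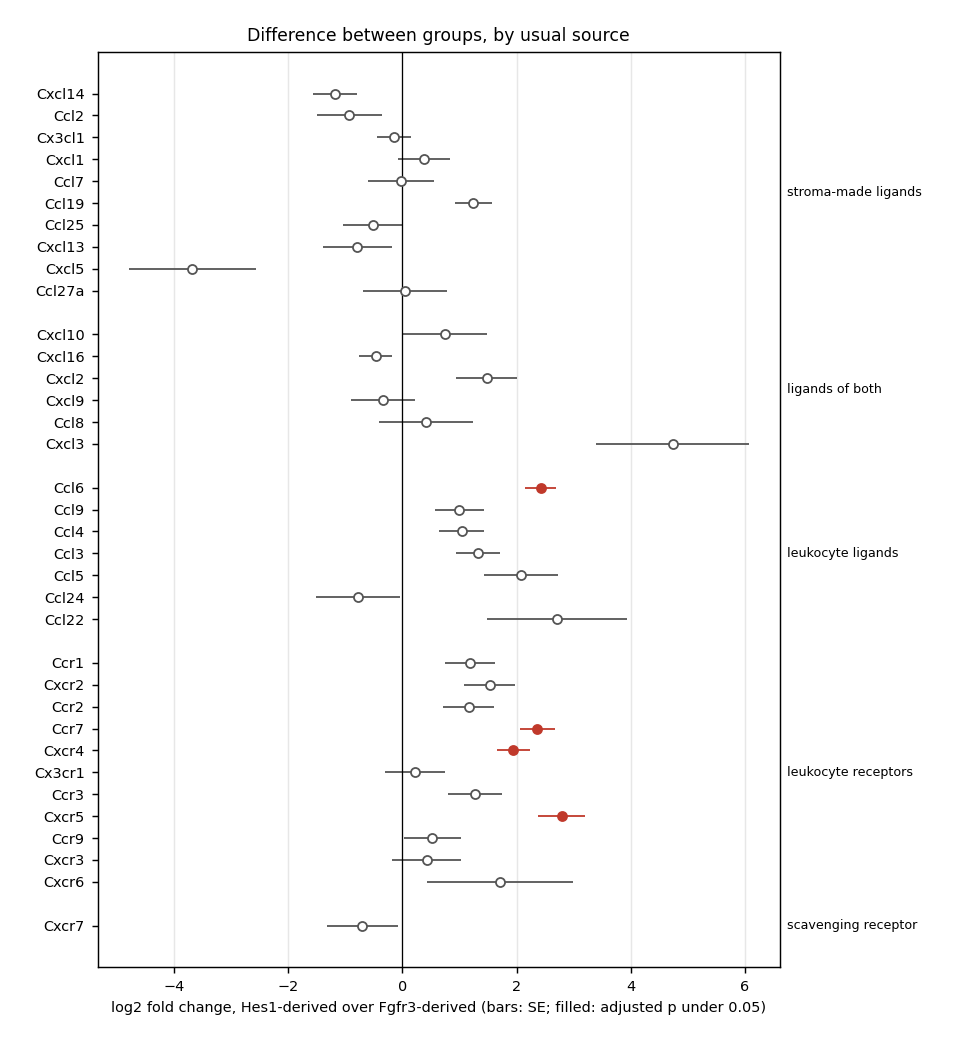
Log2 fold change of 35 tested members, Hes1-derived over Fgfr3-derived, with standard errors as bars; filled red points passed an adjusted p of 0.05. The 4 filled points are Ccl6 among the leukocyte ligands and Ccr7, Cxcr4 and Cxcr5 among the leukocyte receptors, at 1.94 to 2.79.

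The ligands that stroma and leukocytes both make on stimulation include neighbours on chromosome 5 that attract neutrophils through CXCR2. Cxcl1 (counted above with the stroma), Cxcl2 and Cxcl3 are close relatives, and Cxcl1 and Cxcl2 lie 10.8 kb apart. Transcription of these genes is known to be switched on by NF-kB, and that of Cxcl10 by NF-kB and interferon. Their promoters (RefSeq, GRCm38.p6) are shown because these neighbours share an element, so that it can be seen beside the value of each gene. Each stretch is upstream of the RefSeq start and ends 31 bases before it, 5′ to 3′ on the gene's strand, with matches to the NF-kB consensus or to the core of the interferon-stimulated response element (ISRE) in capitals.
Cxcl1 (chr5:90891115-90891214, plus strand): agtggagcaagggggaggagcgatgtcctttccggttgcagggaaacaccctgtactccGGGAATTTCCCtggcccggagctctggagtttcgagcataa
Cxcl2 (chr5:90903769-90903868, plus strand): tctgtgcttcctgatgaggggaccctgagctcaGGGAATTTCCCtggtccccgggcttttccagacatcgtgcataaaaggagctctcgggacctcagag
Cxcl3 (chr5:90785971-90786070, plus strand): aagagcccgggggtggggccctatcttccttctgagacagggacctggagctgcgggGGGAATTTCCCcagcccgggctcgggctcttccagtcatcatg
Cxcl10 (chr5:92348920-92349119, minus strand): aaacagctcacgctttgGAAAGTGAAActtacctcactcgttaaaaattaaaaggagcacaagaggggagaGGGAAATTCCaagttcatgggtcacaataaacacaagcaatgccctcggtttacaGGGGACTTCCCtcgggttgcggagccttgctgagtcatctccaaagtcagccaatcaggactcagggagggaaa
Ccl6 (chr11:83593118-83593217, minus strand): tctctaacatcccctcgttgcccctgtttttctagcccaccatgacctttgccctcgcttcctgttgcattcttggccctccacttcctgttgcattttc

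The 11 letters GGGAATTTCCC stand in the promoters of Cxcl1, Cxcl2 and Cxcl3, starting 71, 97 and 73 bases before the start, and hold overlapping matches on both strands. Cxcl10 has matches starting 159 and 104 bases before its start and an ISRE match at 213. Ccl6, the ligand that passed the test, has no match in the stretch shown. With both strands searched over the 250 bases before the start, 7.25% of 32851 promoters hold the NF-kB consensus and 2.98% hold the ISRE core. Among the 34 of 47 members with a promoter in this set, 8 hold the NF-kB consensus and 3 hold the ISRE core. Each member was counted by a single promoter, whereas the shares count every promoter, so they are unlike measures. Ccl2, Ccl7, Ccr7 and Cxcr5 are among the members without a promoter there. A match describes the letters and does not show a site in use.

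Cxcl1 had 96.7 and 62.0 CPM in the Hes1-derived pair, against 89.0 and 32.4 CPM in the Fgfr3-derived pair, and the groups overlapped. Cxcl2, which activated macrophages and neutrophils also make, had 21.95 and 16.1 CPM in the Hes1-derived pair, against 3.19 and 10.5 CPM in the Fgfr3-derived pair. Both Hes1-derived libraries were higher for Cxcl2, by a log2 fold change of 1.48 ± 0.54 that did not pass (adjusted p = 0.12 by edgeR). Cxcl3 had 10 and 21 reads in the Hes1-derived pair, against 0 and 1 reads in Fgfr3-derived libraries. The ratio of summed Cxcl3 reads was 33.6 with a 95% counting interval of 5.6 to 1370, and the adjusted p was 0.063. Within the Fgfr3-derived pair Cxcl1 was 2.75-fold higher in replicate 2, whereas Cxcl2 in replicate 2 was at 0.305 of its replicate 3 level. Cxcl3 had 0 reads in replicate 2 and 1 read in replicate 3, too few to set beside them. Relative to eGFP all 3 genes were higher in both Hes1-derived libraries. Scaling to eGFP also moved the median log2 fold change of all genes tested to 0.83. Without Fgfr3-derived replicate 3 Cxcl2 passed (2.62, adjusted p = 0.013), and Cxcl3 passed with limma-voom (adjusted p = 0.045).

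Cxcl10 and Cxcl9 encode interferon-induced attractants of activated T cells, 18.6 kb apart on chromosome 5. Cxcl10 had 22.5 and 13.5 CPM in the Hes1-derived pair, against 18.5 and 2.91 CPM in the Fgfr3-derived pair, and Cxcl9 had 9.15 and 6.57 CPM in the Hes1-derived pair, against 15.3 and 4.55 CPM in the Fgfr3-derived pair. Fgfr3-derived replicate 3 was the lowest library for both genes, and the groups overlapped. The log2 fold changes were 0.75 ± 0.74 for Cxcl10 and -0.34 ± 0.57 for Cxcl9. Counts of Cxcl10 are uncertain in the same way where Art3 overlaps it on the opposite strand. Cxcl16, the membrane-bound ligand of CXCR6, was steady within groups at 10.9 and 11.7 CPM in the Hes1-derived pair, against 15.9 and 15.3 CPM in the Fgfr3-derived pair. Its groups did not overlap, but the log2 fold change of -0.47 ± 0.28 did not pass (adjusted p = 0.32), and exons of Zmynd15 overlap it on the opposite strand. Of the 6 tested genes of this class 0 passed by edgeR, 2 were higher and 0 lower at an unadjusted p under 0.05, DESeq2 called 1 higher and 0 lower, and limma-voom called 1 higher and 0 lower. Their median log2 fold change was 0.58. The shares of all genes tested were 5.24% higher and 6.56% lower by edgeR, and 13.7% and 16.3% at an unadjusted p under 0.05. By DESeq2 they were 9.97% and 10.9%, and by limma-voom 6.23% and 7.33%.

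Among leukocyte ligands Ccl6 had the highest level per kilobase of exon (128 CPM per kilobase in Hes1-derived and 23.8 in Fgfr3-derived libraries on average) and passed the test. CCL6 is a rodent CC chemokine made by myeloid cells, and its gene lies on chromosome 11, 83587882 to 83593087, minus strand. It had 199 and 259 CPM in the Hes1-derived pair, against 34.3 and 51.2 CPM in the Fgfr3-derived pair. The lowest Hes1-derived library was far above the highest Fgfr3-derived library, and the log2 fold change was 2.42 ± 0.28 (5.36-fold, adjusted p = 0.013 by edgeR). The Ccl6 call held in all 12 alternatives other than scaling to the pan-leukocyte genes, with log2 fold changes between 2.18 and 3.30. Under that last scaling it was 1.03 and did not pass (adjusted p = 0.21).

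Relative to pan-leukocyte, monocyte and neutrophil reads, Ccl6 was still higher in both Hes1-derived libraries, and relative to B-lymphocyte reads it was not. Per 1000 reads of the 9 pan-leukocyte genes it had 35.6 and 39.2 reads in the Hes1-derived pair, against 21.5 and 15.0 in the Fgfr3-derived pair. Per 1000 reads of the 13 monocyte and macrophage genes it had 30.7 and 30.8 in the Hes1-derived pair, against 10.4 and 11.8 in the Fgfr3-derived pair. On these scales, and per 1000 neutrophil reads (7.29 and 8.07 in the Hes1-derived pair, against 3.88 and 2.34 in the Fgfr3-derived pair), the groups did not overlap. Per 1000 reads of 11 B-lymphocyte genes (without Ebf1, which stroma also expresses) they did, at 80.9 and 112 in the Hes1-derived pair and 101 and 85.2 in the Fgfr3-derived pair. The 13 monocyte and macrophage genes include Vcam1, which is in the CAR cell list too. Vcam1 had 1291 and 964 CPM in the Hes1-derived pair, against 1729 and 859 CPM in the Fgfr3-derived pair. Its reads lower the monocyte-scaled values, and the size of the Ccl6 gap without Vcam1 was not computed.

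The neighbours of Ccl6 did not pass the test, though some did under an alternative. Ccl9, a myeloid ligand whose gene lies 9.2 kb from Ccl6, had 30.6 and 71.1 CPM in the Hes1-derived pair, against 19.4 and 31.5 CPM in the Fgfr3-derived pair, and the groups overlapped (log2 fold change 1.00 ± 0.43, adjusted p = 0.17). Ccl9 passed without Hes1-derived replicate 1 (1.48, adjusted p = 0.0395) and stood at 0.27 without replicate 3 (adjusted p = 0.77). Ccl3 and Ccl4, the macrophage inflammatory proteins whose genes lie 13.2 kb apart, did not overlap between groups. Ccl3 had 9.81 and 14.6 CPM in the Hes1-derived pair, against 4.02 and 5.70 CPM in the Fgfr3-derived pair (1.33 ± 0.39, adjusted p = 0.068), and it passed with DESeq2 (adjusted p = 0.015) and when scaled to the CAR stroma list (adjusted p = 0.041). Ccl4 had 9.50 and 18.3 CPM in the Hes1-derived pair, against 6.74 and 6.81 CPM in the Fgfr3-derived pair (1.04 ± 0.40, adjusted p = 0.13), and leaving out Hes1-derived replicate 3 brought it to 0.49. Whether Ccl6 differed from its neighbours in the size of its change was not tested.

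The other leukocyte ligands were scarce. Ccl5, a product of T and NK cells, had 2.29 and 2.02 CPM in the Hes1-derived pair, against 0.59 and 0.42 CPM in the Fgfr3-derived pair, with a log2 fold change of 2.08 ± 0.65 (adjusted p = 0.082). Listed T and NK cell genes summed to 132 to 165 CPM in Hes1-derived and 52 to 110 CPM in Fgfr3-derived libraries. Ccl22, a dendritic cell ligand, had 25 reads in each Hes1-derived library, against 8 and 0 reads in the Fgfr3-derived pair, a ratio of 6.77 with a 95% counting interval of 3.19 to 16.5 (adjusted p = 0.19). Ccl24, an eosinophil attractant of macrophages, was the only tested leukocyte ligand with lower values in both Hes1-derived libraries, at 0.70 and 0.60 CPM there and 0.79 and 1.45 CPM in the Fgfr3-derived pair (adjusted p = 0.53). Of 7 tested leukocyte ligands 1 was higher and 0 lower by edgeR, 4 were higher and 0 lower at an unadjusted p under 0.05, and DESeq2 called 2 higher and limma-voom 1, with 0 lower in both. Over all genes tested edgeR called 5.24% higher and 6.56% lower, and at an unadjusted p under 0.05 the shares were 13.7% and 16.3%. With DESeq2 they were 9.97% and 10.9%, and with limma-voom 6.23% and 7.33%.

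All 12 tested leukocyte receptors had positive log2 fold changes, as did 48.5% of all genes tested. By edgeR 3 of the 12 were called higher (5.24% of all genes tested). In 11 of the 12 both Hes1-derived libraries lay above both Fgfr3-derived libraries (29.8% of all genes), and the median log2 fold change was 1.23. The pan-leukocyte gene Ptprc, which encodes CD45, had 237 and 338 CPM in the Hes1-derived pair, against 67.3 and 123 CPM in the Fgfr3-derived pair. Its log2 fold change was 1.59 ± 0.34 (adjusted p = 0.030 by edgeR). In the marker lists 6 of 9 pan-leukocyte and 11 of 12 B-lymphocyte genes were higher, against 5.24% of all genes tested. Among monocyte and macrophage genes 3 of 13 were higher, and among neutrophil genes 1 of 11. The part of these cells in the receptor values was not tested. DESeq2 called 7 receptors higher (9.97% of all genes tested) and limma-voom 4 (6.23%). By edgeR, by either of these tools and at an unadjusted p under 0.05, 0 receptors were lower. The shares of all genes that were lower were 6.56% by edgeR, 10.9% by DESeq2, 7.33% by limma-voom and 16.3% at the unadjusted p. The median moved to 0.75 without Hes1-derived replicate 3 and to 1.89 without Fgfr3-derived replicate 3.

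Ccr7 encodes the receptor that guides lymphocytes and mature dendritic cells to CCL19 and CCL21. It had 71.8 and 89.1 CPM in the Hes1-derived pair, against 11.8 and 19.5 CPM in the Fgfr3-derived pair. The groups were widely apart, with a log2 fold change of 2.36 ± 0.30 (5.14-fold, adjusted p = 0.016 by edgeR). Scaled per 1000 reads of the 11 B-lymphocyte genes, Ccr7 had 29.2 and 38.6 reads in the Hes1-derived pair, against 34.4 and 32.5 in the Fgfr3-derived pair, with overlap. Per 1000 pan-leukocyte reads the groups stayed apart, at 12.8 and 13.5 in the Hes1-derived pair and 7.37 and 5.73 in the Fgfr3-derived pair. Listed dendritic cell genes summed to 357 to 390 CPM in Hes1-derived and 177 to 198 CPM in Fgfr3-derived libraries. Irf8 alone had 268 and 252 CPM of these in the Hes1-derived pair, against 77.4 and 106 CPM in the Fgfr3-derived pair. Of the 8 tested genes of that list 2 were higher (5.24% of all genes tested), and 3 had negative log2 fold changes. Ccr7 lies on chromosome 11, 99144196 to 99155077, minus strand.

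Cxcr5, the receptor of mature B cells and follicular T cells for CXCL13, had 14.7 and 10.5 CPM in the Hes1-derived pair, against 1.498 and 2.14 CPM in the Fgfr3-derived pair. This was the largest fold change of the 4 called members, at 2.79 ± 0.42 on the log2 scale (6.91-fold, adjusted p = 0.017 by edgeR). Per 1000 B-lymphocyte reads it had 5.99 and 4.54 in the Hes1-derived pair, against 4.39 and 3.56 in the Fgfr3-derived pair, and the nearest values of the groups almost met. Exons of Bcl9l overlap it on the opposite strand (chromosome 9, 44511787 to 44561877, for Cxcr5). B-lymphocyte markers moved with both receptors, since 11 of the 12 listed genes were higher, and Ebf1 was not (log2 fold change -0.09).

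Cxcr4, the CXCL12 receptor, had 39.9 and 49.2 CPM in the Hes1-derived pair, against 9.38 and 13.8 CPM in the Fgfr3-derived pair. The log2 fold change was 1.94 ± 0.29 (3.83-fold, adjusted p = 0.017 by edgeR), and the gene lies on chromosome 1, 128588199 to 128592293, minus strand. Per 1000 pan-leukocyte reads Cxcr4 had 7.12 and 7.43 reads in the Hes1-derived pair, against 5.89 and 4.06 in the Fgfr3-derived pair, without overlap. Per 1000 B-lymphocyte reads the order turned round, with 16.2 and 21.3 in the Hes1-derived pair, against 27.5 and 23.0 in the Fgfr3-derived pair. The calls of Ccr7, Cxcr5 and Cxcr4, like that of Ccl6, held in the 12 alternatives that did not scale to leukocytes, with adjusted p of up to 0.046. After scaling to the pan-leukocyte genes none of them passed, with a log2 fold change of 1.007 for Ccr7 (adjusted p = 0.24), 1.43 for Cxcr5 (adjusted p = 0.16) and 0.55 for Cxcr4 (adjusted p = 0.53).

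**Figure D3:**
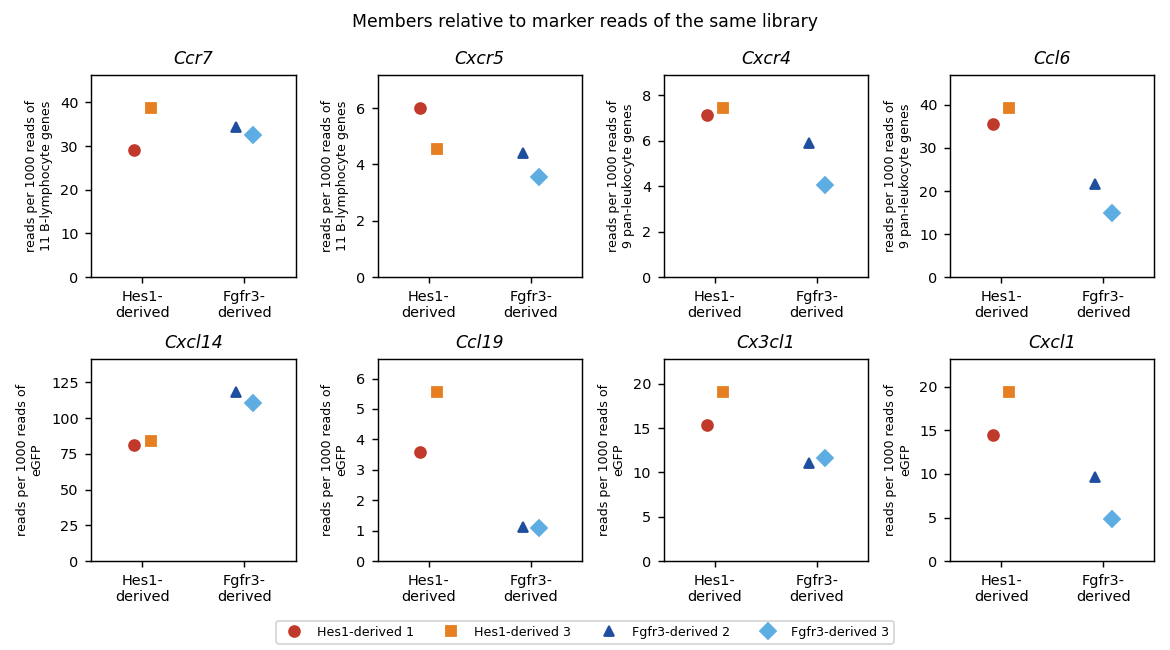
Reads of 8 members per 1000 reads of a marker set in the same library, with one point per library and axes from 0; the upper row uses B-lymphocyte or pan-leukocyte genes and the lower row the eGFP reporter. Ccr7 overlaps between groups relative to B-lymphocyte reads (29.2 and 38.6 in Hes1-derived, 34.4 and 32.5 in Fgfr3-derived libraries), and Ccl6 is higher relative to pan-leukocyte reads, the scale drawn for it; on both scales Ccr7 and Ccl6 have the same order, overlapping per B-lymphocyte reads and higher per pan-leukocyte reads. Cxcl14 is lower and Ccl19 higher relative to eGFP.

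Cxcr2, Ccr1 and Ccr2, receptors of neutrophils and monocytes, did not pass the test. Cxcr2, the neutrophil receptor for CXCL1 and its relatives, had 75.2 and 101 CPM in the Hes1-derived pair, against 16.2 and 44.7 CPM in the Fgfr3-derived pair (log2 fold change 1.53 ± 0.45, adjusted p = 0.068). Ccr1, a receptor of monocytes and neutrophils for CCL3 and related ligands, had 59.8 and 111 CPM in the Hes1-derived pair, against 23.0 and 51.8 CPM in the Fgfr3-derived pair (1.19 ± 0.44, adjusted p = 0.12). Ccr2, the monocyte receptor for CCL2, had 50.1 and 108 CPM in the Hes1-derived pair, against 23.1 and 47.4 CPM in the Fgfr3-derived pair (1.17 ± 0.45, adjusted p = 0.13). These 3 genes did not overlap between groups, but the higher Fgfr3-derived library came close to the lower Hes1-derived one for Ccr1 and Ccr2. Without Fgfr3-derived replicate 3 all 3 receptors passed, with log2 fold changes of 2.49 for Cxcr2, 1.95 for Ccr1 and 1.83 for Ccr2, and DESeq2 called all 3 with every library in. Per 1000 monocyte and macrophage reads, Ccr2 had 7.73 and 12.8 reads in the Hes1-derived pair, against 6.975 and 10.9 in the Fgfr3-derived pair, with overlap. That list includes Vcam1 of the CAR cell list, with 29350 and 23928 reads in the Hes1-derived pair, against 43860 and 22475 in the Fgfr3-derived pair. The order of the libraries for Ccr2 without Vcam1 was not computed. Per 1000 pan-leukocyte reads Ccr2 had 8.96 and 16.3 in the Hes1-derived pair, against 14.5 and 13.9 in the Fgfr3-derived pair, with overlap. Per 1000 neutrophil reads Cxcr2 had 2.75 and 3.14 in the Hes1-derived pair, against 1.83 and 2.05 in the Fgfr3-derived pair, without overlap.

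The remaining receptors did not pass either. Ccr3, the eosinophil receptor, had 6.99 and 13.9 CPM in the Hes1-derived pair, against 5.36 and 3.33 CPM in the Fgfr3-derived pair (adjusted p = 0.12). Cx3cr1, the fractalkine receptor of monocytes and macrophages, was the single tested leukocyte receptor whose groups overlapped, at 14.4 and 10.8 CPM in the Hes1-derived pair, against 5.21 and 16.4 CPM in the Fgfr3-derived pair (log2 fold change 0.22 ± 0.53). Ccr9, Cxcr3 and Cxcr6, all receptors of T cells among other leukocytes, stayed at or below 3.87 CPM in every library, with log2 fold changes between 0.43 and 1.70 and adjusted p between 0.42 and 0.69. Exons of Slc6a20a overlap Ccr9 on the opposite strand and those of Gm17200 on the same strand. Cxcr7, the scavenger of CXCL12, had 1.89 and 1.25 CPM in the Hes1-derived pair, against 3.51 and 1.61 CPM in the Fgfr3-derived pair, a log2 fold change of -0.70 ± 0.62 (adjusted p = 0.50).

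Set against their ligands, the called receptors gave unlike pairs. Cxcr4 was higher while its ligand gene Cxcl12 had a log2 fold change of -0.58 ± 0.41 that did not pass (adjusted p = 0.40). Ccr7 was higher, and Ccl19 stood at 1.24 with an adjusted p of 0.051. Cxcr5 was higher, whereas Cxcl13 had 1.58 and 1.53 CPM in the Hes1-derived pair, against 3.71 and 1.68 CPM in the Fgfr3-derived pair (-0.79 ± 0.60, adjusted p = 0.43). For Cxcr2 the ligands split, with positive values for Cxcl2 and Cxcl3, a value near 0 for Cxcl1 (0.39 ± 0.46) and a negative one for Cxcl5, and no ligand passed. For Ccr2, the ligands Ccl2 and Ccl7 had log2 fold changes of -0.93 ± 0.57 and -0.03 ± 0.58.

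Where the 4 classes stood relative to 0 depended on the scaling. Since a scaling shifts every gene of a library alike, it moves the class medians together and says nothing of their order. With the factors used for the tests the medians were -0.34 for stroma-made ligands, 0.58 for ligands of both sources, 1.33 for leukocyte ligands and 1.23 for leukocyte receptors. Scaled to eGFP they were 0.50, 1.38, 2.23 and 2.22, and scaled to the pan-leukocyte genes -1.94, -0.96, -0.08 and -0.14. The median of all genes tested moved with them, to 0.83 under eGFP and to -1.5 under pan-leukocyte scaling. Under the last scaling Ccl2, Cxcl14, Cxcl16, Cxcl5 and Cxcl9 fell and 0 members were higher. The leukocyte classes lay close to each other, and which of them was higher depended on the libraries, with medians of 1.58 for ligands and 1.61 for receptors once Hes1-derived replicate 1 was left out. Leaving out Fgfr3-derived replicate 3 gave 1.65 for ligands and 1.89 for receptors. Which quantity is the right one to hold constant was not tested.

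**Figure D4:**
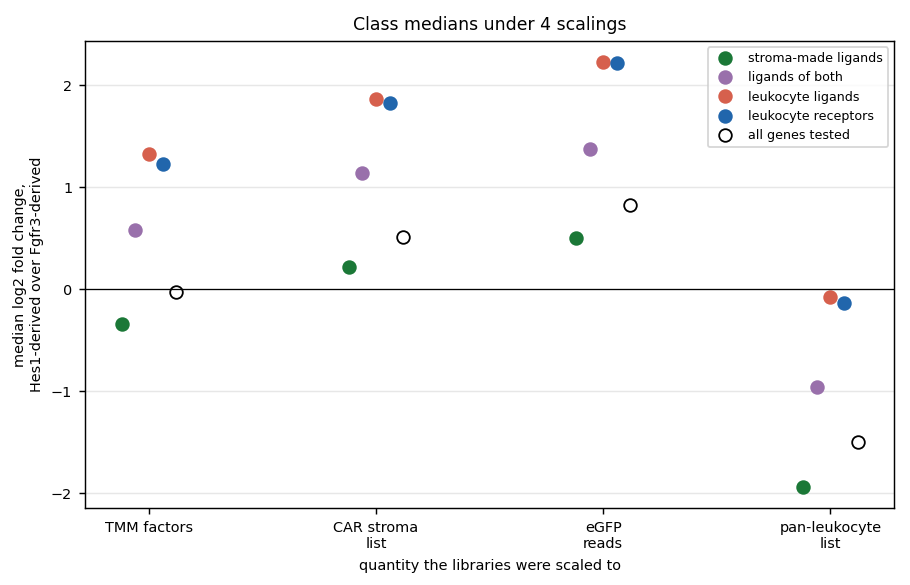
Median log2 fold change (Hes1-derived over Fgfr3-derived) of 4 classes of members and of all genes tested, when libraries are scaled by TMM, to the CAR stroma list, to eGFP reads or to the pan-leukocyte list. The classes and all genes shift together from one scaling to the next, and the leukocyte classes lie near 0 under pan-leukocyte scaling.

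Ccl2, Ccl7, Cxcl1, Cxcl9 and Cxcl10 differed more between the Fgfr3-derived libraries than between the group means. Among 29 members of at least 1 CPM on average, 13 (44.8%) differed at least 2-fold between Fgfr3-derived replicates 2 and 3, and 3 (10.3%) between Hes1-derived replicates 1 and 3. Over 13178 genes of that abundance the shares were 9.41% for the Fgfr3-derived pair and 8.11% for the Hes1-derived pair. Ccl2, Ccl7, Cxcl1, Cxcl9, Cxcl10, Cxcl13 and Cxcr7 were among those higher in Fgfr3-derived replicate 2, by 6.38-fold for Cxcl10, 4.24-fold for Ccl2, 3.84-fold for Ccl7 and 3.37-fold for Cxcl9. Ccr1, Ccr2, Cx3cr1, Cxcl2 and Cxcr2 were higher in replicate 3.

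Ccl2 had 74.3 and 61.8 CPM in the Hes1-derived pair, against 210 and 49.5 CPM in the Fgfr3-derived pair, so the Fgfr3-derived values lay on both sides of the Hes1-derived ones. Ccl7 had 40.3 and 22.7 CPM in the Hes1-derived pair, against 50.9 and 13.3 CPM in the Fgfr3-derived pair, and likewise overlapped. Without Fgfr3-derived replicate 2 the log2 fold change of Ccl2 turned to 0.47 (adjusted p = 0.34) and without replicate 3 it passed as lower (-1.58, adjusted p = 0.010). Without Fgfr3-derived replicate 2 Cxcl10 passed as higher (2.64, adjusted p = 0.043). Other values moved in the same pair of libraries. Reads of the CAR stroma list summed to 29000 CPM in Fgfr3-derived replicate 2 and 19300 CPM in replicate 3, and the pan-leukocyte genes to 1590 and 3410 CPM. The NF-kB-induced genes Nfkbiz and Tnfaip3, chosen after their values were seen, had 313 and 145 CPM and 100.3 and 49.4 CPM there. Nfkbia, Nfkb1 and Rela differed less, at 496 and 368 CPM, 65.5 and 58.3 CPM, and 199 and 219 CPM. Cxcl2, also switched on by NF-kB, went the other way, at 3.19 and 10.5 CPM. The part of these values in the spread of the ligands was not tested.

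**Figure D5:**
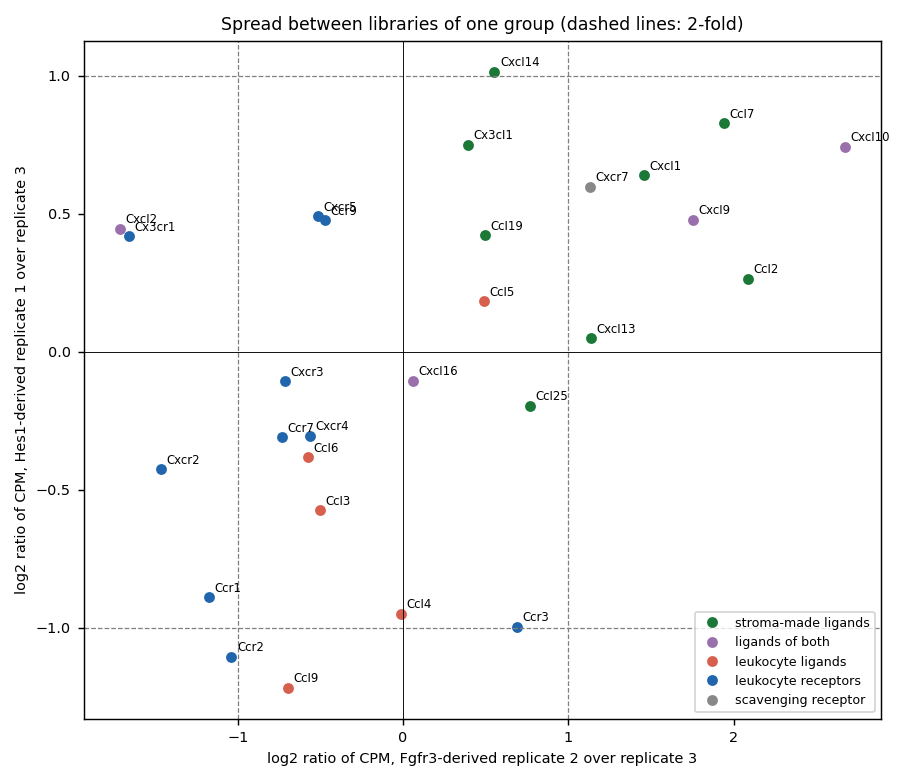
Log2 ratio of CPM between the libraries of one group for 28 members of at least 1 CPM, Fgfr3-derived replicate 2 over 3 on the horizontal axis and Hes1-derived replicate 1 over 3 on the vertical axis, with dashed lines at 2-fold. Cxcl10, Ccl2, Ccl7 and Cxcl9 lie farthest to the right, and 12 of the members drawn lie outside the vertical lines against 3 outside the horizontal ones.

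Other genes of the chemokine pathway also held differences. Of 9 tested relatives outside the rule, Darc, Ccrl2 and Cd74 were higher and 0 were lower (1 lower at an unadjusted p under 0.05, 0 by DESeq2 and by limma-voom). Over all genes tested 5.24% were higher and 6.56% lower by edgeR. The lower shares were 16.3% at the unadjusted p, 10.9% by DESeq2 and 7.33% by limma-voom. Darc, an atypical receptor of erythroid cells and venules now named Ackr1, had 31.4 and 22.9 CPM in the Hes1-derived pair, against 4.85 and 9.98 CPM in the Fgfr3-derived pair (1.87 ± 0.40, adjusted p = 0.030 by edgeR). Ccrl2, which binds chemerin and does not signal as a chemokine receptor, had 64.5 and 42.0 CPM in the Hes1-derived pair, against 14.4 and 16.8 CPM in the Fgfr3-derived pair (1.77 ± 0.28, adjusted p = 0.019). Cd74, the receptor of MIF and the invariant chain of antigen-presenting cells, had 1214 and 981 CPM in the Hes1-derived pair, against 175 and 292 CPM in the Fgfr3-derived pair (2.23 ± 0.33, adjusted p = 0.016). Listed erythroid genes summed to 6360 to 10500 CPM in Hes1-derived and 1740 to 2680 CPM in Fgfr3-derived libraries, and endothelial genes to 97.7 to 115 CPM in Hes1-derived and 36.9 to 48.5 CPM in Fgfr3-derived libraries. Pecam1 alone made 59.0 and 69.6 CPM of the endothelial sums in the Hes1-derived pair, against 15.85 and 20.8 CPM in the Fgfr3-derived pair. It was the only 1 of the 8 endothelial genes that passed. Ccrl1, now named Ackr4 and known as a scavenger of CCL19, CCL21 and CCL25 on stromal cells, did not pass and was chosen after its values were seen. It had 63.3 and 43.0 CPM in the Hes1-derived pair, against 101 and 81.2 CPM in the Fgfr3-derived pair, without overlap (-0.78 ± 0.26, adjusted p = 0.093).

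Of 20 genes of migration signalling 5 were higher and 1 was lower (5.24% and 6.56% of all genes tested). Their median log2 fold change was 1.16 (-0.02 over all genes tested). The higher ones included the kinase genes Ptk2b (1.70 ± 0.28) and Lyn (1.09 ± 0.24), Dock2, an activator of Rac in blood cells (1.42 ± 0.24), and Was, a regulator of actin in blood cells (1.71 ± 0.32). The fifth, Vav1, is also in the pan-leukocyte list. The lower one was the phospholipase gene Plcb3, with 42.2 and 33.2 CPM in the Hes1-derived pair, against 79.1 and 99.5 CPM in the Fgfr3-derived pair (-1.25 ± 0.24, adjusted p = 0.024 by edgeR). Of 18 genes of receptor coupling and desensitization, Arrb1, a beta-arrestin gene, was higher (1.34 ± 0.27, adjusted p = 0.028 by edgeR) and 0 were lower (1 at an unadjusted p under 0.05, 0 by DESeq2 and by limma-voom). For the coupling genes that count was near the share of all genes tested that were higher (5.24%). The pan-leukocyte sums given above moved with the higher genes of both lists.

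Genes of the signalling that induces chemokine transcription, with the inhibitor gene Nfkbia among them, passed in neither direction. These 20 genes include the receptors Il1r1 and Tnfrsf1a and the factors Nfkb1, Rela and Irf1, and 0 of them passed by edgeR. At an unadjusted p under 0.05, 2 were higher and 2 lower (13.7% and 16.3% of all genes tested). DESeq2 called 1 higher and 0 lower (9.97% and 10.9% of all genes tested). With limma-voom 0 were called in either direction (6.23% and 7.33% of all genes tested). The median log2 fold change was -0.04. Nfkbia, the feedback inhibitor of NF-kB, had 685 and 527 CPM in the Hes1-derived pair, against 496 and 368 CPM in the Fgfr3-derived pair (0.49 ± 0.27). Irf1, an interferon-induced factor, had 376 and 322.5 CPM in the Hes1-derived pair, against 439 and 277 CPM in the Fgfr3-derived pair.

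Genes that trim chemokines or make the heparan sulfate that holds them differed in both directions. Of 11 such genes 5 were lower and 1 was higher (6.56% and 5.24% of all genes tested), with a median of -0.94. Dpp4, the peptidase that clips the end of CXCL12 and other chemokines, was the higher one, with 64.3 and 104 CPM in the Hes1-derived pair, against 25.1 and 24.1 CPM in the Fgfr3-derived pair (1.77 ± 0.28, adjusted p = 0.0185 by edgeR). The metalloproteinase gene Mmp14 had 449 and 238 CPM in the Hes1-derived pair, against 1494 and 1557 CPM in the Fgfr3-derived pair (-2.15 ± 0.36, adjusted p = 0.019), and Mmp2 (-1.18 ± 0.27) and Mmp9 (-1.36 ± 0.29) were lower too. Ext1, a polymerase of heparan sulfate, was lower as well (-1.28 ± 0.23). Osteoblast genes were lower in the same libraries (6 of 8 passed, against 6.56% of all genes tested), and their part in these values was not tested.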

How the data were processed

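The data, treated as bulk RNA-seq, are 2 Hes1-derived and 2 Fgfr3-derived libraries. The authors deposited whole-read counts per gene symbol. The submitters' processing notes name TopHat2 2.0.13, Bowtie2 2.2.1, HTSeq and DESeq2 and the build mm10, without their roles. The deposited signal values are those counts times 1 constant per library, and the deposited log2 values are their regularized log2, going by the file names. Tests used the counts.

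Counts were fitted in edgeR 4.0.16 (R 4.3.3; TMM factors, minimum count 10, robust quasi-likelihood F test, 2 residual degrees of freedom, biological coefficient of variation 27.8%) and p-values were adjusted by Benjamini-Hochberg over 14330 of 17230 rows. SE is the absolute log2 fold change over the square root of F. DESeq2 1.42.0, limma 3.58.1 (voom), other scalings and filters, and leaving out each library were alternatives. The fits were tested on simulated data. Positions and exon lengths came from GENCODE M21 (GRCm38). The text names every called member, the 4 highest of each class by mean CPM, neighbours and ligand partners of these, and called genes of each pathway list (up to 4 a direction). Members and lists were chosen with earlier results of these data known. Ebf1 was left out of the B-lymphocyte ratios after its values were seen. Some members and list genes enter the counts but are not reported singly here.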

Additional observations from a re-analysis of the deposited data

How the results depend on the processing

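The number of members higher in Hes1-derived libraries was 4 in the reported fit, 12 when scaled to the CAR stroma list, 0 when scaled to the pan-leukocyte list, 11 with DESeq2, 7 with limma-voom, and between 4 and 8 with a library left out (8 without Fgfr3-derived replicate 3). The number lower was 0, against 5 under pan-leukocyte scaling, 2 with DESeq2 and between 0 and 2 with a library left out. Over all genes 751 were higher, against 324 under eGFP, 9 under pan-leukocyte scaling, 1429 with DESeq2 and 183 to 1225 with a library left out. 940 genes were lower, against 147 under stroma, 19 under eGFP, 3839 under pan-leukocyte scaling, 1557 with DESeq2 and 181 to 998 with a library left out. The scalings moved the median of all genes from -0.02 to 0.51 (stroma), 0.83 (eGFP) and -1.5 (pan-leukocyte).

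Of 449 values of single members under an alternative, 363 kept their direction and side of the threshold, 39 newly passed, 4 no longer passed (each under pan-leukocyte scaling) and 43 changed sign. Under pan-leukocyte scaling the sign changed for Ccl19 (-0.30), Ccl27a (-1.37), Ccl3 (-0.079), Ccl4 (-0.47), Ccl8 (-0.88), Ccl9 (-0.40), Ccr1 (-0.11), Ccr2 (-0.17), Ccr3 (-0.36), Ccr9 (-0.84), Cx3cr1 (-0.95), Cxcl1 (-1.29), Cxcl10 (-1.04) and Cxcr3 (-0.91). Under stroma scaling it changed for Ccl25 (0.10), Ccl7 (0.60), Cx3cl1 (0.35), Cxcl16 (0.078) and Cxcl9 (0.31), and under eGFP scaling for Ccl2 (0.020), Ccl25 (0.41), Ccl7 (0.82), Cx3cl1 (0.60), Cxcl13 (0.13), Cxcl16 (0.40), Cxcl9 (0.55) and Cxcr7 (0.12). Ccl7, at -0.03, was also positive with RLE factors (0.0066), library totals (0.037), DESeq2 (0.0068), limma-voom (0.22) and no filter (0.0070). With a library left out the sign depended on the library for Ccl2 (-1.58 to 0.47), Ccl27a (-0.21 to 0.26), Ccl7 (-0.65 to 1.26), Cx3cl1 (-0.57 to 0.18), Cx3cr1 (-0.37 to 1.32), Cxcl1 (-0.12 to 1.31), Cxcl10 (-0.00079 to 2.64) and Cxcl9 (-0.92 to 0.80). The cause was not tested, except that each scaling shifts every gene of a library alike. In fits without a library the lone sample is assumed to vary like the other group.

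No paired analysis was possible because the groups share only replicate number 3. Cxcl3, Cxcl5, Ccl8 and Ccl22 rest on few reads, and each group has 2 libraries.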
